A study of Mus musculus with 4 samples.

Results

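The insulin-like growth factor (IGF) system was followed in marrow stroma and bone cells through 10 genes: the ligands Igf1 and Igf2, the receptors Igf1r and Igf2r, and the binding proteins Igfbp2, Igfbp3, Igfbp4, Igfbp5, Igfbp6 and Igfbp7. The genes were taken by name, and all 10 are among the 32286 features counted. They were measured by droplet single-cell RNA-seq in 3 classes of cells, named Lepr+ CAR stromal-like, osteo-primed stromal-like and osteoblast-like from marker genes. The mice, of strain C57BL/6J, carried Tnfsf11tTA/+, LC1 and Rosa26LSL-tdTomato, so that a tetracycline transactivator at 1 allele of the RANKL gene drives Cre and marks cells in which that locus was active, and their descendants, with tdTomato. Both groups had this genotype, received doxycycline from E0 until birth to keep fetal cells unlabelled, and were 10 weeks old at collection. The immobilized group had spent the 2 weeks from 8 weeks of age with hindlimbs immobilized, a model of bone loss from disuse, and the control group had not. Cells from 4 control and from 6 immobilized mice were pooled by group, which leaves 1 sample of each and no measure of the spread between animals. Live cells with tdTomato but neither CD45.2 nor Ter119 were sorted from digested femurs and tibias of both limbs and their marrow, so the cells described are those of the sorted RANKL lineage that survived digestion, not those of the whole tissue.

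IGF1 and IGF2 are secreted peptides that activate the tyrosine kinase receptor encoded by Igf1r and, through it, the PI3K and AKT pathway. The receptor encoded by Igf2r, which also carries mannose 6-phosphate ligands, takes up IGF2 for degradation and does not signal as a kinase. The binding proteins hold IGFs outside the cell, and proteases such as pappalysin-1 cut them and free the ligand. IGF1 is the main local growth factor of bone matrix and stimulates osteoblasts, and growth hormone raises its production in liver and in bone. IGFBP4 is mostly an inhibitor of IGF action, IGFBP5 binds to bone matrix, and IGFBP7 binds IGFs only weakly.

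The libraries of each pool were sequenced as 2 lanes, whose difference was below the sampling noise, and the lanes of a pool were averaged and counted as 1 sample. They held 9960011 to 10860328 UMIs (unique molecular identifiers, 1 per captured RNA molecule) per lane. Counted per cell and gene, 79.0% (control) and 75.5% (immobilized) of lane 1 UMIs were matched in lane 2. Lanes that agree are therefore no replication, here and below. After filtering there were 1411 control and 1394 immobilized cells, with median depths of 5576.5 and 5706.5 UMIs. The median mitochondrial share of the kept cells was 3.36% and 4.40%. Of the barcodes, 3 occurred in both pools. The Lepr+ CAR stromal-like class (Cxcl12-abundant reticular cells of the marrow) had 565 control and 352 immobilized cells, the osteo-primed stromal-like class 204 and 348, and the osteoblast-like class 473 and 474. Clusters were named from these markers, so marker sums describe the classes and test nothing. The 12 CAR markers, among them Lepr, Cxcl12 and Adipoq, summed to 35985 and 30261 CPM (UMIs per 1000000 UMIs of the class) in the CAR class, against 3612 and 3821 CPM in the osteo-primed and 173 and 212 CPM in the osteoblast class, and none of the 12 was at 0 in the CAR class. The 9 osteoblast markers summed to 140716 and 105029 CPM in the osteoblast class, but also to 15546.5 and 14786.7 CPM in the osteo-primed and 8334 and 4803 CPM in the CAR class. The 8 osteo-primed markers summed to 18377 and 19568 CPM in theirs, 2642 and 2851 CPM in the CAR and 764 and 1748 CPM in the osteoblast class. Between 1 sample and 1 sample there is no test. Levels carry exact Poisson and ratios exact conditional binomial 95% intervals, which cover counting error only and treat UMIs as independent. A gene counted as measured in a class with at least 50 UMIs in 1 of the pools, and as higher or lower when its log2 ratio of immobilized to control was at least 0.5 in size, which is a rule of size and not a test.

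In the CAR class 8 of the 10 members were measured, and 3 of these were higher in the immobilized pool (Igf1, Igfbp3 and Igf2) and 0 lower. Over all 7513 measured genes of that class 5.66% were higher, 5.52% lower and 11.2% either. In the osteo-primed class 6 members were measured, with 0 higher and 1 lower (Igfbp5), against 6.94% higher and 4.21% lower of 6587 genes. In the osteoblast class 5 members were measured, with 2 higher (Igf1r and Igfbp4) and 0 lower, against 21.8% higher and 5.69% lower of 8032 genes. The median log2 ratio of the measured members was -0.04 in the CAR, -0.10 in the osteo-primed and 0.37 in the osteoblast class, beside 0.01, 0.05 and 0.20 over all measured genes. The osteoblast median shows a general upward shift by total counts. Scaled instead by the median ratio of all genes, which moves that class by 0.22, 2 members were higher (8.37% of all genes) and 2 lower (12.8%), the latter being Igfbp5 and Igfbp7. Osteoblast values below are therefore given on both scales. In the CAR class the same scaling left Igf1 and Igfbp3 higher (4.82% of all genes) and put Igfbp5 at -0.52 and so among the lower genes (6.85%). In the osteo-primed class it left 0 members higher (6.45% of all genes) and Igfbp5 lower (4.54%).

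**Figure D1:**
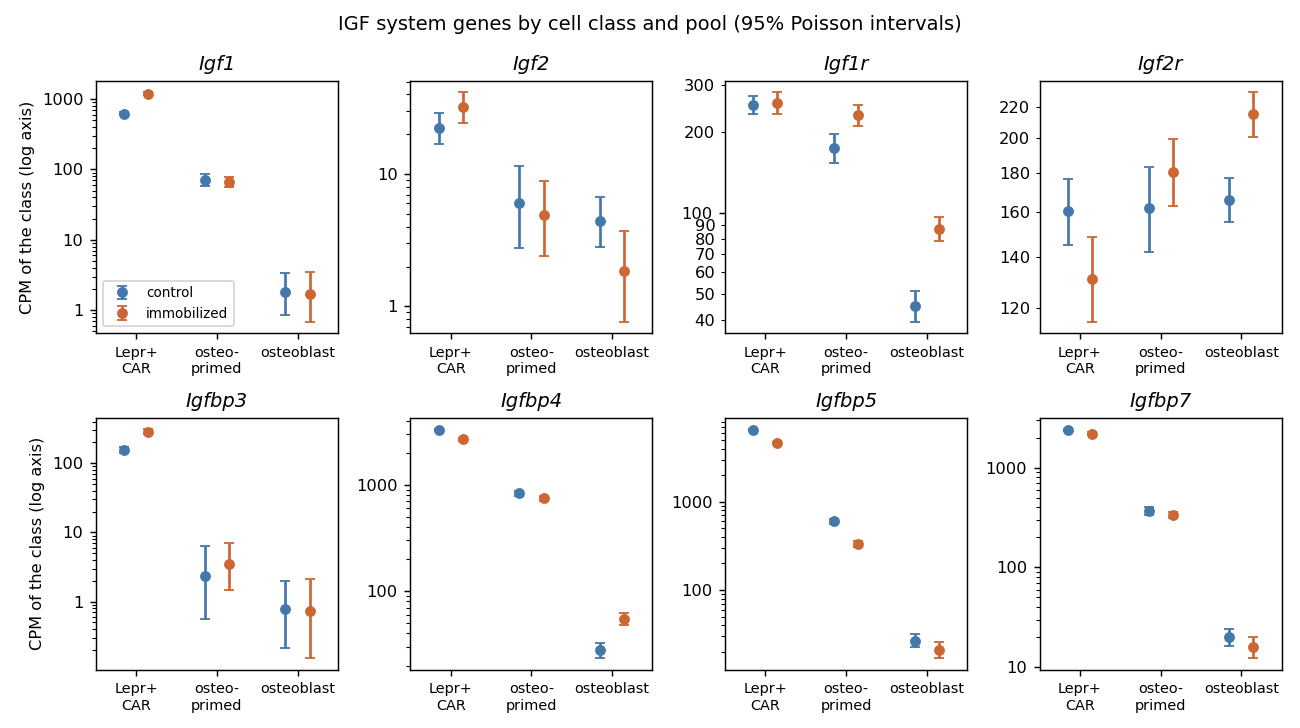
Levels of the 8 members with at least 50 UMIs in 1 class and pool, in CPM of the class on a log axis, for the control pool (blue) and the immobilized pool (orange). Points are the mean of 2 lanes and bars are exact Poisson 95% intervals. Igf1, Igfbp3, Igfbp4, Igfbp5 and Igfbp7 fall from the CAR to the osteo-primed and the osteoblast class in both pools, and the Igf2r levels lie between 131 and 215 CPM in every class.

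Promoters of the 3 members with the largest pool differences in the stromal classes are shown to give the sequence around an annotated start of each. The Igf1 window lies inside the gene as annotated (87858265 to 87937042), so it belongs to an internal start and need not be the main promoter. RefSeq's table on GRCm38.p6 holds 14 promoters for the 10 members, each 250 bases before to 50 after a start, and those of Igf1, Igfbp3 and Igfbp5 are printed on the gene's own strand, 5′ to 3′. Capitals mark matches, on either strand, to 6 motifs: the TATA box TATAAA, the CCAAT box, the GC box GGGCGG, the AP-1 site TGACTCA, the cAMP response element TGACGTCA and the E-box CACGTG, none of which is contained in another.
Igf1, plus strand, chr10:87860861-87861160: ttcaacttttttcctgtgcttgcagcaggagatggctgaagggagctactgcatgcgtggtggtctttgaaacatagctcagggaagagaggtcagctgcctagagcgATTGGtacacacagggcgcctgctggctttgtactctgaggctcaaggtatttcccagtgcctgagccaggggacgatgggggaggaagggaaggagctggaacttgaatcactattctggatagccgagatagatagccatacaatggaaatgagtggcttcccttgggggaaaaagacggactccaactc
Igfbp3, minus strand, chr11:7213874-7214173: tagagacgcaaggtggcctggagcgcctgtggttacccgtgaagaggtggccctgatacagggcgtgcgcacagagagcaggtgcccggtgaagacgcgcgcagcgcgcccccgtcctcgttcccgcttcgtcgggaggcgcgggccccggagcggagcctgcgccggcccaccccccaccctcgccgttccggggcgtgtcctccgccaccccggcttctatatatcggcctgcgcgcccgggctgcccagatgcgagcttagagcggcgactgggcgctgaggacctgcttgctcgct
Igfbp5, minus strand, chr1:72874816-72875115: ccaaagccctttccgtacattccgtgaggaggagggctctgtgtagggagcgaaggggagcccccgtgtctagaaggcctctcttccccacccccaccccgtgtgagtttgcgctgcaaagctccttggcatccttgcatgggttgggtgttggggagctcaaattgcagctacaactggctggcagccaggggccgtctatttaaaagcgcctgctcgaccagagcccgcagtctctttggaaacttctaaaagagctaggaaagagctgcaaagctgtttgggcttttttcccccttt
The printed Igf1 window holds 1 match, a CCAAT box on the minus strand at position -142 from that internal start, a motif found in 37.4% of 32851 mouse promoters of the same length. The Igfbp3 and Igfbp5 promoters hold 0 matches to the 6 motifs. Their GC contents were 52.3% (Igf1), 71.7% (Igfbp3) and 56.3% (Igfbp5). Among the other members a GC box was found in promoters of Igf2, Igf1r, Igf2r, Igfbp2 and Igfbp7, a motif held by 35.7% of all promoters, and a TATA box in those of Igfbp4 and Igfbp6 (13.6% of all). A match is a match of letters and not a bound site. No readout of these data bears on binding there.

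Igf1 (ENSMUSG00000020053, chromosome 10, 87858265 to 87937042 on GRCm38, plus strand, protein coding), the gene of the ligand of the type 1 receptor, was mostly in the CAR class: 81.9% of its UMIs in kept control cells and 91.4% in immobilized cells. In CAR cells it stood at 618 CPM in each control lane and at 1178 and 1185 CPM in the immobilized lanes. The ratio of immobilized to control was 1.91 (95% interval 1.79 to 2.04), a log2 ratio of 0.93 (0.84 to 1.03) on 1552 and 2191.5 UMIs. The higher level ran through the class rather than sitting in a few cells: the median CAR cell of the control pool had 2 Igf1 UMIs and that of the immobilized pool 4.25, the upper quartile was 4 and 8.5, and 19.1% and 44.9% of cells had at least 5. The share of CAR cells with an Igf1 UMI was 75.8% and 90.2%, at median depths of 3972 and 4451.25 UMIs. Thinned to 2000 UMIs per cell, which left out 50.5 and 14.5 cells, it was 60.8% and 77.9%. Haematopoietic-like cells, which should lack Igf1 apart from free RNA, numbered 69 and 111 with median depths of 2854.5 and 2227.5 UMIs, and 0.725% and 1.80% of them had one.

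Each of the 5 CAR clusters had more Igf1 in the immobilized pool, but not to the same degree. Cluster 2, with 18 control but 148 immobilized cells and with Frmd5, Clstn2, Igfbp3 and Igf1 itself among its leading genes, had 850.0 and 1563 CPM (log2 ratio 0.87, 0.54 to 1.24). Cluster 7 (111 and 33 cells) stood at 837 and 1460 CPM (0.80, 0.58 to 1.02) and cluster 14 (208 and 74 cells) at 555 and 919 CPM (0.73, 0.52 to 0.93). Cluster 0 (195 and 65 cells) had a smaller ratio of 0.45 (0.21 to 0.68), and in cluster 5 (33 and 32 cells) the interval of 0.18 (-0.19 to 0.54) held a ratio of 1. The class value moved with the cell mix: it was 0.70 with both pools weighted to 1 cluster mix and 0.57 without cluster 2. Since clusters were made from the same counts, the levels of their leading genes describe them and test nothing.

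**Figure D2:**
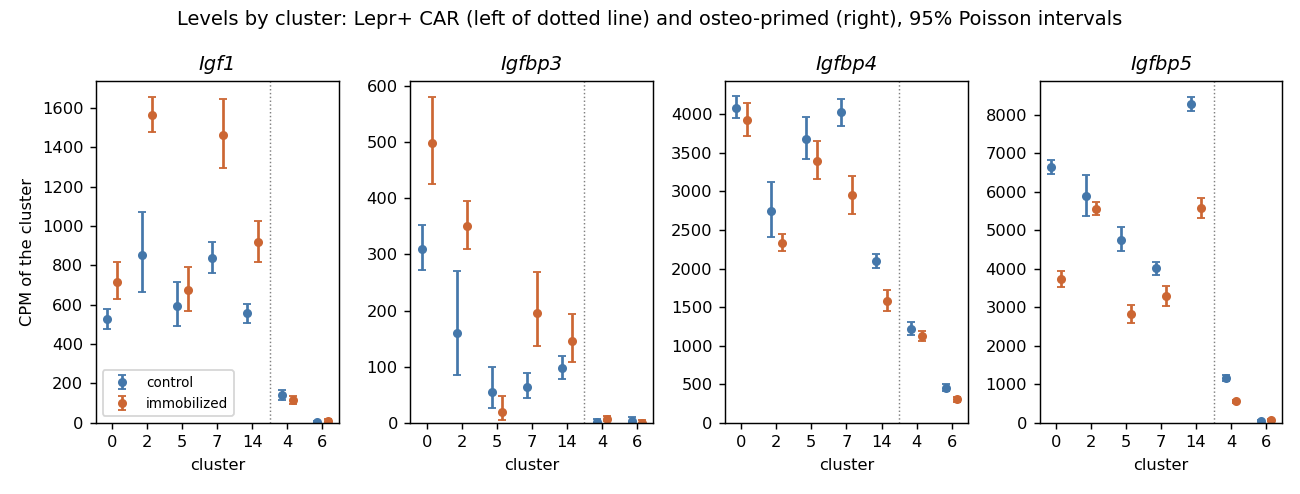
Levels of Igf1, Igfbp3, Igfbp4 and Igfbp5, in CPM of the cluster on a linear axis from 0, in the 5 CAR clusters (left of the dotted line) and the 2 osteo-primed clusters (right), for the control (blue) and immobilized (orange) pool with exact Poisson 95% intervals. Igf1 reaches 1563 CPM in cluster 2 and 1460 CPM in cluster 7 of the immobilized pool, and Igfbp5 falls from 1168 to 559 CPM in cluster 4 but stays near 60 CPM in cluster 6.

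Cells were sexed from Xist and Y-linked genes. Female cells made up 47.8% of sexed CAR cells of the control pool and 30.0% of those of the immobilized pool. The labels do not give the sex of the animals. Igf1 was higher in immobilized CAR cells of each sex, with a log2 ratio of 0.63 (0.45 to 0.81) for 556 and 859 CPM among female cells, and with 658 and 1341 CPM among male ones (1.03, 0.90 to 1.15). Within each pool it was also higher in male than in female cells. CAR cells of the immobilized pool held more RNA of other cell types: 4 of 4 measured granulocyte markers were higher (179 and 357 CPM summed over 8) and 4 of 4 measured erythroid markers (171 and 483 CPM summed over 7), while 7 of 9 measured genes of tissue dissociation stress, such as Fosb and Egr1, were lower (1024 and 667 CPM). Osteoblast markers in CAR cells were lower in 4 of 6 measured, at 8334 and 4803 CPM summed over 9. The part of these in the Igf1 ratio was not tested.

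In osteo-primed and osteoblast-like cells Igf1 was low, and over all cells of either class it did not differ between the pools beyond counting error. Osteo-primed cells of the control pool had 70.4 CPM and those of the immobilized pool 66.7 CPM, a log2 ratio of -0.08 (-0.45 to 0.30). In female osteo-primed cells it was -0.65, with an interval (-1.21 to -0.11) that held no ratio of 1, and in male ones 0.16 (-0.41 to 0.77). These UMIs were in few cells: 14.95% and 13.2% of osteo-primed cells had one (9.20% and 7.60% after thinning), and the 10% of cells with the most held 90.05% and 92.0% of them. Nearly all were in cluster 4 (139 and 114 CPM), against 3.30 and 11.6 CPM in cluster 6. These shares are means of the lanes. In the sum of both lanes, 36 and 58 osteo-primed cells had an Igf1 UMI. Those cells also had more CAR marker RNA, a median of 0.858% and 0.991% of their UMIs against 0.128% and 0.147% in those without. Osteo-primed markers made up 1.77% and 1.99% against 1.64% and 1.88%. Osteoblast-like cells had 9.5 and 7 Igf1 UMIs in all, 1.83 and 1.71 CPM, at or below the 3.11 and 8.96 CPM of haematopoietic-like cells. The step from CAR to osteo-primed cells was a log2 ratio of 3.13 (2.85 to 3.43) within the control pool and 4.14 (3.90 to 4.40) within the immobilized pool. Pericyte or smooth muscle-like cells, 60 in the control pool, were near the CAR level at 614 CPM (527 to 712), and the 7 of the immobilized pool stood at 949 CPM (664 to 1313). Which cells take this name depends on the clustering. It went to 55 and 7 cells with doublet calls kept. At Leiden resolution 2.0, and in clustering without the listed genes, it went to only 8 and 5 cells. The Igf1 level of that smaller set is not given. The few endothelial-like cells, 9 and 17, had 320 CPM (215 to 458) and 110 CPM (55.7 to 194). However, 1 control cell held 16 of the 29.5 control UMIs. The intervals do not cover such a spread between cells, so no pool difference is read from them.

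Igf1os, an antisense transcript that overlaps Igf1, had 52 UMIs in all kept cells, against 4293 for Igf1. It stood at 7.76 and 16.2 CPM in CAR cells (19.5 and 30 UMIs), a log2 ratio of 1.05 (0.19 to 1.96), beside that of 0.93 for Igf1. The sources used here do not say whether the counting used strand, so reads of the gene and its antisense partner cannot be told apart.

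Igf2 (ENSMUSG00000048583, chromosome 7, 142650766 to 142666816, minus strand, protein coding), the imprinted ligand that both receptors bind, was close to the count minimum. In CAR cells it stood at 19.6 and 24.9 CPM in the control lanes and 32.6 and 31.6 CPM in the immobilized lanes, on 56 and 59.5 UMIs, and 6.90% and 9.38% of the cells had one. Its log2 ratio of 0.52 reached the fold but its interval (-0.03 to 1.08) held a ratio of 1. The value does not stand on its own: it was -0.40 without cluster 2, -0.13 at 1 cluster mix and -0.38 with a stricter cell filter (at least 1000 genes and under 5% mitochondrial counts). Under that filter a cluster led by Frmd5 and Clstn2, as cluster 2 was, took the erythroid name (6 control and 113 immobilized cells). It left the CAR class, so that setting is close to leaving out cluster 2. Cluster 2 held 42.5 of the 59.5 immobilized UMIs, at 47.2 and 54.2 CPM in the pools (log2 ratio 0.05, -1.26 to 2.14). Osteo-primed cells had 9 and 10.5 UMIs and osteoblast-like cells 23 and 7.5. The antisense Igf2os had 3.5 UMIs in all.

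Igf1r (ENSMUSG00000005533, chromosome 7, 67952827 to 68233668, plus strand, protein coding), the signalling receptor, passed the fold between pools in osteoblast-like cells alone of the 3 classes. In CAR cells it stood at 256 and 250.5 CPM in the control lanes and 253 and 263 CPM in the immobilized lanes, overlapping values with a log2 ratio of 0.03 (-0.15 to 0.20). In osteo-primed cells it stood at 165 and 184 CPM and at 233 and 231 CPM, and the log2 ratio of 0.41 (0.19 to 0.63) stayed under the fold. There it was 0.53 in female and 0.48 in male cells, 0.25 (-0.03 to 0.54) in cluster 4 and 0.59 (0.24 to 0.96) in cluster 6, and 0.14 after thinning. In osteoblast-like cells it stood at 44.2 and 45.6 CPM in the control lanes and 86.5 and 88.4 CPM in the immobilized lanes, with no overlap, a ratio of 1.95 (1.65 to 2.31) and a log2 ratio of 0.96 (0.72 to 1.21), or 0.75 by median-ratio scaling. The share of osteoblast-like cells with an Igf1r UMI was 32.0% and 39.9%, and 11.1% and 14.9% after thinning, which gave a log2 ratio of 0.60.

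In the control pool cluster 3 stood further above the other osteoblast-like clusters in Igf1r than the immobilized pool stood above the control pool. Cluster 3, with Sp7, Ifitm5, Smpd3, Alpl and Col22a1 as its osteoblast markers, stood at 131 and 135 CPM (log2 ratio 0.03, -0.45 to 0.56) and held 51 control and 146 immobilized cells. Clusters 8 and 9 stood at 40.7 and 79.6 CPM (0.98, 0.21 to 1.69) and at 38.5 and 78.5 CPM (1.02, 0.58 to 1.48), and cluster 10 at 37.8 and 53.8 CPM (0.51, -0.02 to 1.03). The class value was 0.86 without cluster 3 and 0.67 at 1 cluster mix. Female cells made up 92.9% and 77.4% of sexed osteoblast-like cells. The log2 ratio was 1.11 (0.85 to 1.37) in female cells and 0.24 (-0.56 to 1.19) in the 32 and 100 male cells. With the stricter cell filter it was 1.43. The class then held a cluster of 164 control and 20 immobilized cells and one of 42 and 92. The latter had Alpl among its markers, as cluster 3 did, so the cell mix of the pools was uneven. Marker RNA of other classes also differed between the pools. Osteo-primed markers in osteoblast-like cells were higher in 6 of 8 measured (764 and 1748 CPM summed), and the 8 chondrocyte markers summed to 2313 and 603 CPM, with 1 measured and lower. Osteo-primed cells had more Igf1r than osteoblast-like cells in both pools, and the part of these shifts in the ratio was not tested.

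In the control pool the Igf1r level was highest in CAR cells, next in osteo-primed and lowest in osteoblast-like cells. The step from CAR to osteo-primed cells was a log2 ratio of 0.54 (0.33 to 0.75), and that from osteo-primed to osteoblast-like cells 1.96 (1.70 to 2.22). In the immobilized pool the first step was 0.15 (-0.03 to 0.34), so that these neighbours did not differ beyond counting error, and the second was 1.41 (1.21 to 1.61). Igf1r was not specific to stroma: haematopoietic-like cells stood at 356 and 609 CPM, and the 42 osteocyte-like cells of the immobilized pool at 338 CPM (233 to 475) on 33 UMIs.

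Igf2r (ENSMUSG00000023830, chromosome 17, 12682406 to 12769664, minus strand, protein coding), the clearing receptor, was the 1 of the 8 measured members that was highest in osteoblast-like cells in both pools, which held 52.6% and 54.5% of its UMIs. In the control pool the 3 classes were level, at 160 CPM in CAR, 162 in osteo-primed and 166 in osteoblast-like cells, and the intervals of the ratios between any of these neighbours held 1. In the immobilized pool they stood in order at 131, 181 and 215 CPM. The log2 ratio of CAR to osteo-primed cells was then -0.46 (-0.70 to -0.23) and that of osteo-primed to osteoblast-like cells -0.25 (-0.43 to -0.08), so that all 3 differed beyond counting error. Between pools no class reached the fold: the log2 ratio was -0.29 (-0.53 to -0.06) in CAR, 0.16 (-0.08 to 0.40) in osteo-primed and 0.37 (0.23 to 0.51) in osteoblast-like cells. The last was 0.16 by median-ratio scaling, 0.41 in female and 0.02 in male cells. In all 19 alternatives the CAR value was below 0, between -0.36 and -0.18.

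Airn, the long noncoding RNA transcribed antisense across Igf2r from the paternal allele, had 10883 UMIs in kept cells. It stood at 499 and 353 CPM in CAR cells (log2 ratio -0.50, -0.64 to -0.36), 636 and 662 CPM in osteo-primed cells (0.06, -0.06 to 0.18) and 546 and 744 CPM in osteoblast-like cells (0.44, 0.37 to 0.52). Its ratios had the order of those of Igf2r over the 3 classes. Because it is unstated whether strand was used, reads of Airn and Igf2r cannot be told apart.

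**Figure D3:**
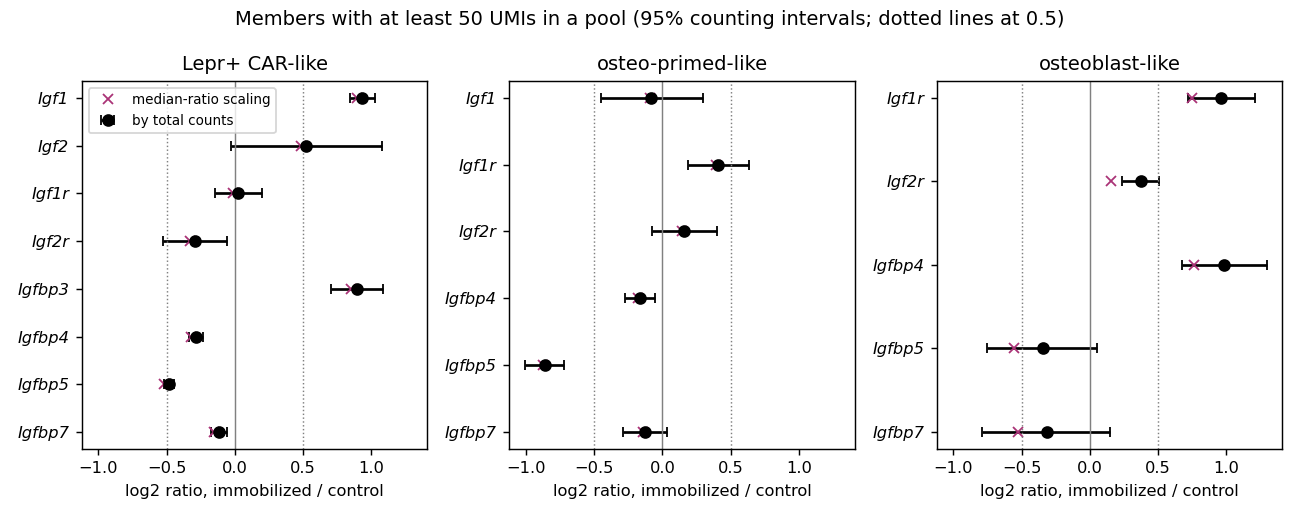
Log2 ratio of immobilized to control for the members measured in each class, by total counts (black, with exact conditional binomial 95% intervals) and by median-ratio scaling (purple crosses). Dotted lines mark 0.5 in either direction. Igf1 (0.93) and Igfbp3 (0.89) lie past it in the CAR class, Igfbp5 (-0.86) in the osteo-primed class, and Igf1r (0.96) and Igfbp4 (0.98) in the osteoblast class.

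Igfbp3 (ENSMUSG00000020427, chromosome 11, 7206086 to 7213923, minus strand, protein coding), the main IGF carrier of serum, was held mostly by CAR cells, with 91.4% and 95.7% of its UMIs in kept cells. It stood at 154 CPM in each control lane and at 275 and 297 CPM in the immobilized lanes. These did not overlap, and the ratio was 1.86 (1.63 to 2.12), a log2 ratio of 0.89 (0.70 to 1.09) on 386.5 and 530 UMIs. The share of CAR cells with an Igfbp3 UMI was 28.6% and 47.4%, or 18.9% and 32.7% after thinning, against 1.45% of control haematopoietic-like cells and 0 of 111 immobilized ones, which allows a share of up to 2.70%. At least 5 Igfbp3 UMIs were found in 2.48% and 9.66% of CAR cells. Osteo-primed cells had 3.5 and 7.5 and osteoblast-like cells 4 and 3 Igfbp3 UMIs in all.

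Within CAR cells Igfbp3 differed by cluster and by sex. Cluster 0, of which it is a leading gene together with Slc26a7 and Il34, stood at 310.1 and 498 CPM (log2 ratio 0.69, 0.39 to 0.98), and cluster 2 at 159 and 351 CPM (1.09, 0.35 to 2.05). Cluster 7 stood at 63.0 and 195 CPM (1.63, 0.92 to 2.36) and cluster 14 at 97.1 and 146 CPM (0.60, 0.06 to 1.11). Cluster 5 went the other way, at 54.6 and 18.6 CPM on only 10.5 and 4 UMIs. Its interval (-1.45, -3.67 to 0.22) held a ratio of 1. Male CAR cells had more Igfbp3 than female cells in each pool, at 215 against 85.0 CPM in the control and 340.0 against 97.6 CPM in the immobilized pool. Between pools the log2 ratio was 0.66 (0.43 to 0.89) in male cells, and in female cells it was 0.21 with an interval (-0.34 to 0.72) that held a ratio of 1. The value of 0.89 over all cells is larger than either, and the part of the lower share of female cells in the immobilized pool was not tested. It was 1.49 without cluster 0 and 0.63 without cluster 2.

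**Figure D4:**
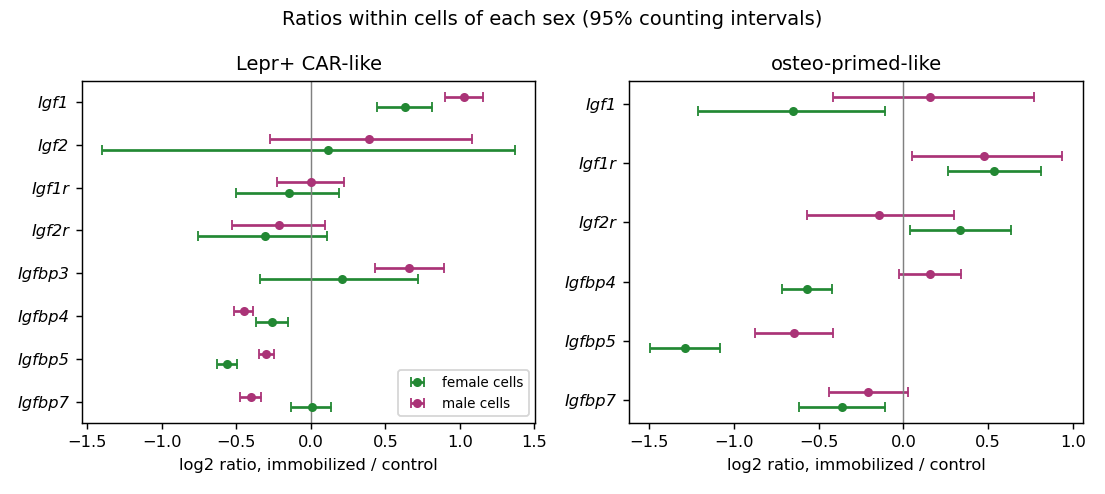
Log2 ratio of immobilized to control within female cells (green) and male cells (purple) of the CAR class (left) and the osteo-primed class (right), with exact conditional binomial 95% intervals. In CAR cells Igf1 lies above 0 in each sex (0.63 and 1.03) and Igfbp5 below 0 in each (-0.56 and -0.30), while Igfbp4 of osteo-primed cells lies at -0.57 in female and 0.16 in male cells.

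Igfbp5 (ENSMUSG00000026185, chromosome 1, 72857932 to 72874884, minus strand, protein coding), which binds to bone matrix and lies beside Igfbp2, went the other way. In CAR cells it stood at 6546 and 6528 CPM in the control lanes and 4715 and 4657 CPM in the immobilized lanes. The lanes did not overlap, and the ratio was 0.717 (0.698 to 0.736), a log2 ratio of -0.48 (-0.52 to -0.44) that lay just short of the fold by total counts. Its sign was the same in 19 of 19 alternatives (-0.70 to -0.29), and it was past the fold in 6 of them, among them median-ratio scaling (-0.52) and cells without cluster 2 (-0.70). Nearly every CAR cell had an Igfbp5 UMI, 98.0% and 97.9%, and the difference was one of amount, with medians of 23.5 and 17.5 UMIs per cell. The clusters differed: the log2 ratio was -0.83 (-0.92 to -0.74) in cluster 0, -0.75 in cluster 5, -0.57 in cluster 14 and -0.29 in cluster 7, while cluster 2 stood at -0.08 (-0.22 to 0.05). Without cluster 14, where its level was 8272 and 5571 CPM, the class value was -0.29. In female cells it was -0.56 and in male cells -0.30.

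In osteo-primed cells the Igfbp5 difference was larger. It stood at 606 and 603 CPM in the control lanes and 329 and 335 CPM in the immobilized lanes, a ratio of 0.55 (0.498 to 0.607) and a log2 ratio of -0.86 (-1.01 to -0.72). It was below 0 in each sex, at -1.28 (-1.49 to -1.08) in female and -0.65 (-0.87 to -0.42) in male cells. The value rests on cluster 4, the osteo-primed cluster with more CAR marker RNA (6132 and 6218 CPM, against 1157 and 1037 CPM in cluster 6), where the Igfbp5 level was 1168 and 559 CPM (-1.06, -1.21 to -0.91). In cluster 6, which held 94 and 150 cells, it was 55.4 and 69.0 CPM, and without cluster 4 the class value was 0.31 (-0.26 to 0.91). The share of osteo-primed cells with an Igfbp5 UMI was 41.4% and 32.6%, and 26.9% and 23.1% after thinning, against 2.22% and 2.44% of thinned haematopoietic-like cells. Of the 12 CAR markers 10 were measured in cluster 4, with 1 higher and 2 lower in the immobilized pool. Of the dissociation stress genes 6 of 12 measured were lower in the osteo-primed class (3834 and 2906 CPM), and their part in the result was not tested. The step from CAR to osteo-primed cells was 3.43 (3.34 to 3.53) within the control pool and 3.82 (3.71 to 3.93) within the immobilized pool.

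Igfbp4 (ENSMUSG00000017493, chromosome 11, 99041244 to 99054392, plus strand, protein coding), the inhibitory binding protein that pappalysin-1 cuts, was lower in CAR cells by less than the fold. It stood at 3228 and 3272 CPM in the control lanes and 2679 and 2660 CPM in the immobilized lanes, a log2 ratio of -0.28 (-0.34 to -0.23), and was below 0 in all 19 alternatives (-0.45 to -0.17). By cluster it ran from -0.06 (-0.15 to 0.04) in cluster 0 to -0.45 (-0.59 to -0.31) in cluster 7. In osteo-primed cells it stood at 833 and 744 CPM (-0.16, -0.27 to -0.06), with opposite values in the sexes: 839 and 565 CPM in female cells (-0.57, -0.72 to -0.42) but 876 and 977 CPM in male cells (0.16, -0.02 to 0.34). Cluster 6 stood at 455 and 304 CPM (-0.58, -0.81 to -0.35) and cluster 4 at 1221 and 1122 CPM (-0.12, -0.25 to 0.0029).

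Osteoblast-like cells had little Igfbp4, at 27.9 and 27.6 CPM in the control lanes and 55.9 and 53.8 CPM in the immobilized lanes, a log2 ratio of 0.98 (0.68 to 1.30), or 0.77 by median-ratio scaling. The share of osteoblast-like cells with an Igfbp4 UMI was 19.5% and 28.1%, at median depths of 9700.5 and 8172.25 UMIs. After thinning it was 4.94% and 8.70%, no higher than the 5.56% and 11.4% of thinned haematopoietic-like cells. Those cells are shallower, so free RNA can be a larger part of their UMIs. This comparison therefore cannot settle whether the whole class stood above background. The ratio was 1.55 (1.19 to 1.93) in female cells and -1.88 (-2.68 to -1.10) in male cells, the latter on 30.5 and 28 UMIs. It was 0.44 with the doublet calls kept, 0.46 at 1 cluster mix, 0.66 without cluster 3, and 1.47 with the stricter cell filter and its uneven cell mix. Cluster 3, with 51 and 146 of the cells, was above the haematopoietic-like level: Igfbp4 stood there at 134 CPM (98.1 to 179) and 118 CPM (98.4 to 140), against 48.2 (27.3 to 78.9) and 53.7 (31.9 to 84.9) in haematopoietic-like cells. Between pools its log2 ratio in cluster 3 was -0.19 (-0.68 to 0.33). Osteoblast-like cells of the immobilized pool also had more osteo-primed marker RNA, 764 and 1748 CPM with 6 of 8 markers higher, and 4 of 7 measured CAR markers were higher (173 and 212 CPM). The part of these in the Igfbp4 ratio was not tested.

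Igfbp7 (ENSMUSG00000036256, chromosome 5, 77349240 to 77408041, minus strand, protein coding), the weak IGF binder found in matrix and vessels, was nearly level. In CAR cells it stood at 2397 and 2329 CPM in the control lanes and 2165 and 2203 CPM in the immobilized lanes, a log2 ratio of -0.11 (-0.17 to -0.06). Its levels differed more between the sexes than between the pools: 1366 CPM in female against 3202 CPM in male control cells, and 1370.4 against 2420.0 CPM in the immobilized pool. The ratio between pools was 0.01 (-0.13 to 0.14) in female and -0.40 (-0.47 to -0.33) in male cells, and 0.13 without cluster 7, the cluster with the highest CAR level (4524 and 4145 CPM). In osteo-primed cells it stood at 367 and 336 CPM (-0.13, -0.29 to 0.04). Osteoblast-like cells stood at 19.8 and 15.9 CPM (-0.31, -0.79 to 0.14, or -0.53 by median-ratio scaling), against 23.3 and 22.4 CPM in the shallower haematopoietic-like cells. Over the whole class their Igfbp7 can thus not be told from background here. The same holds for Igfbp5 in osteoblast-like cells, at 26.8 and 21.1 CPM (-0.34, -0.75 to 0.05, or -0.56) against 35.8 and 22.4 CPM. Cluster 3 stood higher, at 65.6 and 26.7 CPM for Igfbp7 (-1.30, -2.14 to -0.43) and 80.1 and 44.2 CPM for Igfbp5 (-0.87, -1.56 to -0.13). In male osteoblast-like cells Igfbp7 stood at -2.14 (-3.12 to -1.20) on 23.5 and 18 UMIs. Igfbp5 stood there at -1.86 (-3.02 to -0.71) on 15 and 14 UMIs. In female cells the intervals of both (-0.27 and -0.38) held a ratio of 1. Polr2b, which lies over Igfbp7 on the other strand, had 595 UMIs in kept cells, against 12727.5 for Igfbp7.

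Igfbp2 and Igfbp6 were not measured in any class. Igfbp2 (ENSMUSG00000039323, chromosome 1, 72824503 to 72852474, plus strand), a circulating binding protein, had 12 and 8 UMIs in CAR, 0.5 and 5.5 in osteo-primed and 0.5 and 0 in osteoblast-like cells, where a count of 0 allows up to 0.735 CPM. Of its 19.5 UMIs in the immobilized pool 6 were in the 17 endothelial-like cells, at 57.2 CPM (21.0 to 124). Igfbp6 (ENSMUSG00000023046, chromosome 15, 102144362 to 102149511, plus strand), which prefers IGF2, had 1.5 and 3.5 UMIs in all kept cells.

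Across the 3 classes the ligand Igf1 and the binding proteins Igfbp3, Igfbp4, Igfbp5 and Igfbp7 shared 1 order in both pools, highest in CAR and lowest in osteoblast-like cells. The log2 ratio of CAR to osteoblast-like cells in the control pool was 8.33 for Igf1, 7.93 for Igfbp5, 7.47 for Igfbp3, 6.89 for Igfbp7 and 6.87 for Igfbp4. The osteoblast levels of these 5 genes over the whole class in that pool lie below those of haematopoietic-like cells. The class shares of UMIs differed less: CAR cells held 78.3% and 70.3% of Igfbp4 UMIs, 85.8% and 90.9% of those of Igfbp5 and 78.1% and 79.0% of those of Igfbp7. Igf1 and the 4 binding proteins did not move together between the pools: in CAR cells Igf1 and Igfbp3 were higher, and Igfbp4, Igfbp5 and Igfbp7 stood at -0.28, -0.48 and -0.11.

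The genes with the most alike patterns over the 17 clusters with at least 30 cells were found by Pearson's r of log2(CPM + 1), as a description in which the points share libraries and depth. For Igf1 they were Cxcl12 (r = 0.982), the chemokine that defines CAR cells, Esm1 (0.977) and Igfbp5 (0.974). For Igfbp5 they were Cxcl12 (0.987), Serping1 (0.986) and Il7 (0.985), the lymphoid growth factor. Igfbp4 was most like Gas6 (0.984), Plpp3 (0.983) and Igfbp7 (0.980), and Igfbp7 most like C6 (0.985), Fbn1 (0.981), the fibrillin-1 gene, and Igfbp4. Igfbp3 was most like Il34 (0.956), Rasgrf2 (0.944) and Gpm6b (0.944). For the receptors the values were lower for Igf1r, at 0.952 for Vps54, 0.910 for Mapk14 and 0.908 for Tmem164, and for Igf2r they were 0.981 for Pura, 0.951 for H2afy2 and 0.951 for Lzts2.

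The rest of the pathway was read from 6 lists of 73 genes. Of the 11 listed genes of binding protein proteases, their inhibitors and other carriers, 4 were measured in CAR cells, with 0 higher, 3 lower and a median of -0.57, where 5.52% of all genes were lower. Adam12 was the one within the fold, at -0.17. Pappa, which encodes pappalysin-1, stood at 1850.2 and 1259 CPM (log2 ratio -0.55, -0.63 to -0.48), and was past the fold in 10 of 19 alternatives (-0.78 to -0.35). The secreted serine protease genes Htra1 (200.3 and 112 CPM, -0.83) and Htra3 (105 and 69.8 CPM, -0.58) were the others. The Htra1 ratio was -1.24 among female and -0.07 among male cells, and that of Htra3 -0.12 without cluster 14. Of 7 measured genes of growth hormone signalling 0 were higher and 2 lower (median -0.05): the receptor gene Ghr at 2383 and 1505 CPM (-0.66, -0.73 to -0.60), which was -0.25 in male cells, and the signal transducer gene Stat5a at 191 and 133 CPM (-0.52, -0.75 to -0.30), which was 0.73 in male cells and 0.48 without cluster 14. In CAR cells the gene of the ligand was thus higher while that of the receptor for its main hormonal inducer was lower.

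The insulin receptor and its adaptors had 2 of 8 measured genes higher and 0 lower in CAR cells (median 0.11). These were Insr, the insulin receptor gene, at 115 and 171 CPM (0.58, 0.34 to 0.81) and Irs2, a docking protein of both receptors, at 23.7 and 49.1 CPM (1.05, 0.56 to 1.55), which was 0.51 without cluster 2. None of the 18 measured genes of the PI3K, AKT and mTOR list passed the fold in either direction (0 higher, 0 lower, median 0.01). Of 9 measured FOXO factors and targets only Pdk4, which limits glucose oxidation, was higher (0.59, 0.01 to 1.17, and 0.23 with the looser cell filter). Of 4 measured imprinted growth genes and IGF2 mRNA binding proteins only the cell cycle inhibitor gene Cdkn1c was lower (-0.50, -0.75 to -0.26). Over the 6 lists 3 of 50 measured genes were higher and 6 lower in CAR cells, beside 5.66% and 5.52% of all genes. The higher count was 1 without cluster 2, and the lower count was 2 without cluster 14 and 2 without cluster 5.

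In osteo-primed cells 3 of 46 measured pathway genes were higher (6.52%) and 2 lower (4.35%), close to the 6.94% and 4.21% of all genes. Pappa was higher, at 360 and 524 CPM (0.54, 0.39 to 0.69), the opposite sign to CAR cells. It was 0.23 in male cells and 1.44 without cluster 4. Htra1 (174 and 89.8 CPM, -0.95, -1.23 to -0.68) and Htra3 (73.8 and 50.6 CPM, -0.54, -0.94 to -0.15) were lower, as in CAR cells, although Htra1 stood at 0.026 in male cells. Deptor, an inhibitor of mTOR, stood at 58.4 and 116 CPM (0.99, 0.64 to 1.36) and was 1 of 19 measured in its list past the fold. Txnip, which restrains glucose uptake, was the 1 of 8 FOXO list genes past it (0.68, 0.36 to 1.01). Growth hormone signalling (6 measured, median -0.19) and the insulin receptor list (8 measured, median 0.17) had 0 genes past the fold in either direction.

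In osteoblast-like cells 14 of 46 measured pathway genes were higher (30.4%) and 1 lower by total counts, beside 21.8% and 5.69% of all genes. By median-ratio scaling 5 were higher (10.9%) and 3 lower, beside 8.37% and 12.8%. Nothing particular to the pathway is read from these shares, and the genes below are given as values. In the insulin receptor list 4 of 8 measured were higher (3 by median-ratio scaling, list median 0.52), among them Insr at 47.6 and 92.5 CPM (0.96, 0.72 to 1.20, or 0.74), Irs1 (0.59, or 0.37) and the adaptor gene Grb14 (0.79, or 0.58). In the PI3K, AKT and mTOR list 5 of 19 were higher (1 by median-ratio scaling, list median 0.33), a share near the 21.8% of all genes, among them Rictor, a subunit of mTOR complex 2, at 43.4 and 77.8 CPM (0.84, 0.59 to 1.10, or 0.63), Mtor (0.63, or 0.42) and Pik3r1 (0.57, or 0.35). Ghr stood at 242 and 343 CPM (0.50, 0.39 to 0.61, or 0.29) and Stat5b at 0.54 (or 0.33). The binding protein protease gene Adam12 stood at 429 and 654 CPM (0.61, 0.53 to 0.69, or 0.39). Sesn3 (0.54, or 0.32) and the imprinted Peg3 (1.01, or 0.79) were higher, and the imprinted Plagl1 lower (-0.52, or -0.73). The dissociation stress genes were lower there in 10 of 12 measured (4159 and 2796 CPM), and their part was not tested.

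Female cells made up most of the osteoblast-like class. In male cells 3 of the listed genes were higher, but with so few cells fewer genes reach the count minimum. The number of genes measured in male cells and the share over all genes are not given. This count is therefore not comparable with that of the whole class, and no difference between the sexes is read from it. Igf1r and Insr, the 2 receptor genes, had alike ratios over the whole class (0.96 each), and in male cells stood at 0.24 and 0.50. Adam12 (-0.44), Ghr (-0.29) and Grb14 (-0.10) had the opposite sign in male cells. With 32 and 100 such cells these values have wide counting intervals, and the difference between the sexes was not tested.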

How the data were processed

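The files deposited are matrices of UMI counts, unnormalized, which per the file headers came from Cell Ranger 7.0.0, on mm10 (per the submitters' processing notes). The annotation release, intron counting and strand setting are not given in the sources used here. Coordinates come from GENCODE vM21 on GRCm38, which matched 32235 of the 32286 features and is the mm10 assembly. Of the barcodes, 1617 of 1620 control barcodes were shared between lanes, and 1747 of 1751 (lane 1) and 1754 (lane 2) immobilized ones. Between lanes the mean chi-square per gene was 0.534 (14619 genes, control) and 0.586 (14737 genes, immobilized), under the 1 of independent sampling, so lanes were averaged and UMI numbers can end in 0.5. Barcodes under 500 genes (90 control, 126 immobilized) or at 10% or more mitochondrial counts (146, 300) were left out, as were 18 (1.11%) and 9 (0.515%) Scrublet doublet calls.

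Both pools were clustered together, without integration, in scanpy 1.11.5 (counts scaled to 10000 per cell, 2000 variable genes, 30 components, 15 neighbours, Leiden resolution 1.0), which gave 18 clusters. A cluster took the name of 1 of 22 cell types with at least 3 markers and 30% of that type's list at over 2-fold the other cells and a UMI in at least 10% of the cluster. Of the 10 leading genes of clusters 8 and 10, Col2a1 is a chondrocyte marker. The members, lists and markers were chosen with earlier results of these data known. UMIs were summed over the cells of a class. Log2 ratios use a pseudocount of 0.5 counts. With 1 pool a group, no p-value is given. The ratio code was tested on simulated counts.

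All 10 members are reported. Of each pathway list and class, at most 4 measured genes with the largest log2 ratios past 0.5 are named, where the interval held no ratio of 1 and both lanes and median-ratio scaling gave the same sign; some genes that this rule takes are not reported here, and the counts of each list include them. Leading genes of clusters, markers and overlapping genes were named after their values were seen. Alternatives were the scaling, the count minimum (10, or none), a stricter (1000 genes, 5% mitochondrial) and a looser cell filter (300 genes, 20%), doublet calls kept, Leiden resolution 2.0, clustering without the listed genes, 1 cluster mix, each lane, each sex, thinning to 2000 UMIs a cell, and each cluster left out. Protein sequences were not used here.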

Additional observations from a re-analysis of the deposited data

Results flagged for a closer look

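Of the listed genes, 2 were past the fold in opposite directions in different cell classes. Ghr, the growth hormone receptor gene, had a log2 ratio of -0.66 in Lepr+ CAR stromal-like and 0.50 in osteoblast-like cells, the latter 0.29 by median-ratio scaling and -0.29 in male cells. Pappa, the gene of the protease that cuts IGFBP4, stood at -0.55 in Lepr+ CAR stromal-like and 0.54 in osteo-primed stromal-like cells. With 1 pool a group the difference between classes was not tested for either gene.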

How the results depend on the processing

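No paired analysis was possible because each group is 1 pool, and the numbers that the groups share are sequencing lanes of 1 library, not animals. All intervals cover counting error only, so animal differences, litter and pooling are not covered, and for Igf2 in CAR cells (56 and 59.5 UMIs) a difference of the measured size was not detectable at this depth. The alternatives, single lanes among them, reuse the same libraries and are not independent of each other. Igf1 in CAR cells was past the fold in 19 of 19 alternatives (0.57 to 1.04) and Igfbp3 in 18 of 19 (0.21 to 1.49). In osteoblast-like cells Igf1r was past it in 17 of 18 (0.24 to 1.43) and Igfbp4 in 14 of 16 (0.44 to 1.55). Igf2 in CAR cells turned to -0.13 at 1 cluster mix, -0.40 without cluster 2 and -0.38 with the stricter filter, and Igfbp5 in osteo-primed cells to 0.31 without cluster 4. The stricter filter gave cells like those of cluster 2 the erythroid name, so in CAR cells it is close to leaving out cluster 2. In male cells alone Adam12 (-0.44), Ghr (-0.29) and Grb14 (-0.10) of osteoblast-like cells, Htra1 of osteo-primed cells (0.026) and Stat5a of CAR cells (0.73) turned sign, and Stat5a was 0.48 without cluster 14. Of 296 counts recomputed under an alternative, 225 stayed within 1.5 times and 71 did not; the cause was not tested.

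Settings that leave out cells or UMIs bring fewer genes to the count minimum. Shares over all genes are not given for them, so their counts below are not comparable with the main ones. Of members in CAR cells, 3 were higher, but 1 in female cells, where Igf2 (17.5 and 7.5 UMIs) was not measured and Igfbp3 stood at 0.21. The 0 lower became 1 at 1 cluster mix, in female cells, under median-ratio scaling, with the stricter filter and without cluster 2 or 7. In osteo-primed cells the 0 higher became 1 in female cells, with no count minimum and without cluster 4, and the 1 lower became 3 in female cells and 2 with the looser or the stricter filter. In osteoblast-like cells the 2 higher became 1 at 1 cluster mix, with doublet calls kept and after thinning, and 0 in male cells, where Igfbp4 (30.5 and 28 UMIs) was not measured. The 0 lower there became 2 at 1 cluster mix, with doublet calls kept, under median-ratio scaling and with no count minimum, and 1 at resolution 2.0, without the listed genes in clustering, at a count minimum of 10, with the looser or stricter filter and without cluster 3. Igf2r, highest in osteoblast-like cells of the control pool by a small margin, left that class (1 to 0) with doublet calls kept, in lane 2 and with the looser filter, where osteo-primed cells then had 1 in place of 0, and with the stricter filter (0). In immobilized female cells 1 member was highest in osteo-primed cells in place of 0.

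Of the pathway genes in CAR cells, the 3 higher became 5 in male cells and with no count minimum, 0 after thinning and 1 without cluster 2, and the 6 lower became 10 at a count minimum of 10, 13 with none, 3 with the looser filter and 2 without cluster 14 or 5. In osteo-primed cells the 3 higher became 5 at a count minimum of 10, 7 with none, in female cells or without cluster 4, and 1 in male cells. The 2 lower there became 4 and 8 at these minimums and 1 in cells of either sex, with either filter and after thinning. In osteoblast-like cells the 14 higher became 9 at 1 cluster mix or without cluster 3, 3 in male cells, 5 under median-ratio scaling and 7 after thinning. The 1 lower there became 2 at a count minimum of 10, with the stricter filter and without cluster 3 or 10, 3 with the looser filter or median-ratio scaling, 6 with no minimum, and 0 in female cells, after thinning and without cluster 8.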
